A study of Canis lupus familiaris with 4 samples.

Results

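Axon guidance ligands and receptors were examined in 4 canine glioblastoma (GBM) lines. The set comprised every gene of the array whose symbol belonged to the semaphorins, plexins, ephrins, Eph receptors, Slits, Robo receptors, netrins or UNC5 receptors. Genes named SLITRK, which are not Slits, were left out. The rule gave 62 genes of the 15115 genes with a symbol, and each gene was represented by the brightest of its probe sets over the 4 arrays. J3T-2A cells were J3T-2 cells made to overexpress annexin A2 (ANXA2), a calcium-dependent membrane-binding protein. They were set against J3T-2 cells, described by the authors as low in ANXA2. J3T-1shA cells were J3T-1 cells in which ANXA2 was knocked down. They were set against J3T-1 cells, described by the authors as high in ANXA2. The sample labels give the subclone names only. J3T-1 cells were also set against J3T-2 cells, both being derived from the same parental J3T line. All lines were grown in DMEM with fetal bovine serum, and total RNA of each line was hybridised to 1 Affymetrix Canine Genome 2.0 array.

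Each line was a single culture of 1 subclone, arrays of a vector or scrambled-sequence control were not analysed here, and no age or strain was given for the animal of origin. With 1 array per line there is no replicate error and no test, and a fold difference describes 2 arrays. Fewer cells that transcribe a gene and less RNA per cell cannot be told apart in such extracts. The arrays matched in scale, with medians of 101.8 to 106.5 over 42924 probe sets. The deposited signal of ANXA2 itself did not follow the described ANXA2 levels of the lines. Its brightest probe set read 28774.6 on the J3T-2A array and 30102.5 on the J3T-2 array, 30092.9 on the J3T-1shA array and 28656.0 on the J3T-1 array. Its second probe set read 35650.8 in J3T-2A and 30310.9 in J3T-2 cells, 25725.4 in J3T-1shA and 24127.5 in J3T-1 cells. J3T-2A, J3T-2, J3T-1shA and J3T-1 therefore stand below for the arrays so labelled, and each direction below rests on those labels.

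Guidance cues are secreted or membrane-bound proteins that steer growing axons by attraction or repulsion, and the same proteins act on migrating cells and vessels. Semaphorins act through plexins, the secreted class 3 semaphorins mostly together with neuropilins, while ephrins act through Eph receptor tyrosine kinases, Slits through Robo receptors, and netrins through DCC and UNC5 receptors. In glioma, members of these families are known for effects on invasion and angiogenesis.

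Most guidance genes were dim. A gene was taken as measured where its MAS 5.0 signal, the array software's linear intensity, reached 250 on at least 1 of the arrays compared. By that limit 16 of the 62 guidance genes (25.8%) were measured on any array, against 7241 of all 15115 genes (47.9%). The measured genes comprised 12 of 33 ligands (36.4%) and 4 of 29 receptors (13.8%). Only EPHA2, PLXNB2, ROBO1 and SEMA4F reached 250 on all 4 arrays.

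The 12 measured ligands were 8 semaphorins of 19, the ephrins EFNA1 and EFNA4 of 4 ephrins-A, SLIT3 of 3 Slits and NTN3 of 4 netrins. The semaphorins were SEMA3A, SEMA3B, SEMA3C, SEMA3F, SEMA4C, SEMA4F, SEMA6D and SEMA7A. The receptors were the plexins PLXNB2 and PLXND1 of 7, EPHA2 of 8 Eph receptors of class A, and ROBO1 of 4 Robo receptors. None of the 3 ephrins-B, the 5 Eph receptors of class B or the 5 genes named UNC5 reached the limit on any array.

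The 46 genes under the limit had signals of 2.6 to 243.7, with a median of 50.5, and 16 of them exceeded 100 on some array. EFNB1, a transmembrane ligand of Eph receptors of class B, was the closest to the limit, at 243.7 on the J3T-1 array. Just inside it lay, among others, SEMA3C at 253.2, SEMA6D at 267.7 and SEMA7A at 268.0 on the J3T-2A array. SEMA3B at 256.6 and NTN3 at 277.1 on the J3T-2 array did so too. Those genes would have been left out of the comparisons that they entered through those arrays at a somewhat higher limit. PLXNB1 reached 219.4, SEMA4A 219.1, EPHB3 177.8, ROBO3 129.9, UNC5A 127.8, NTN4 108.1, EPHA4 101.7, SLIT1 73.1 and EFNA5 41.2, each the highest signal among the unmeasured genes of its family. The symbol UNC5CL matched the rule although its product is not a netrin receptor, and it too lay under the limit.

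**Figure D1:**
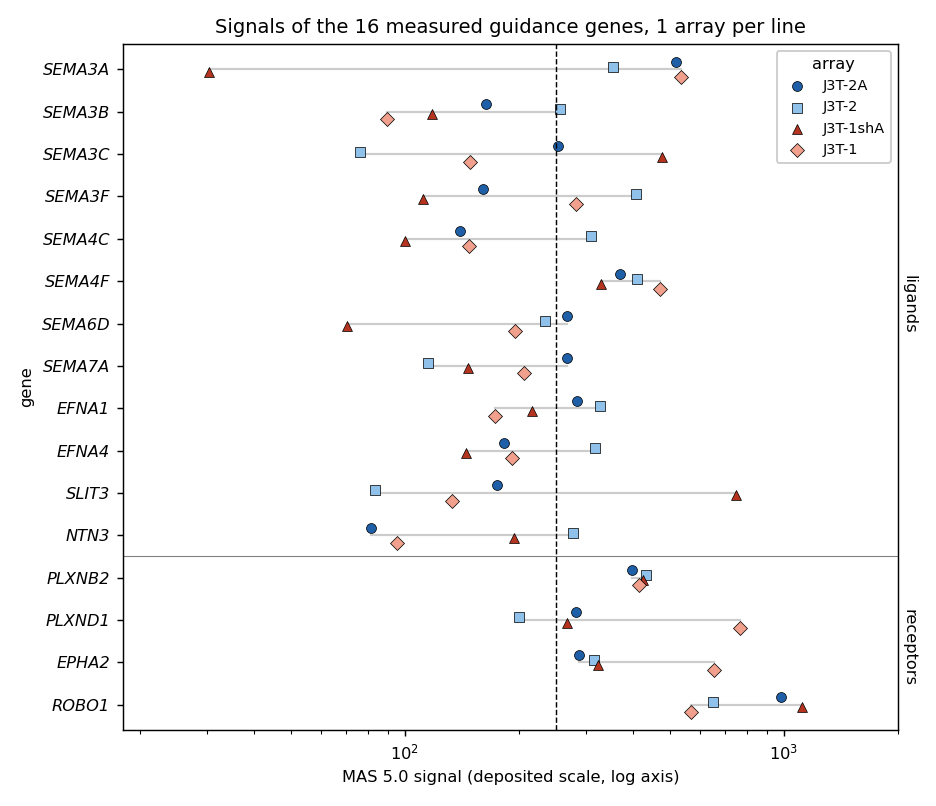
MAS 5.0 signals of the 16 guidance genes that reached 250 on any array (dashed line), on a log axis, with 1 point per array and a grey line over the range of the 4 arrays. SEMA3A stands alone at 30.4 in J3T-1shA cells, and SLIT3 at 746.8 in the same cells, while the 4 points of PLXNB2 lie together.

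Among the 4 measured class 3 semaphorins, secreted cues that mostly bind neuropilins, SEMA3A and SEMA3C had the widest ranges over the lines. SEMA3A, a classical axon repellent, had signals of 519.4 in J3T-2A and 353.6 in J3T-2 cells, 30.4 in J3T-1shA and 535.8 in J3T-1 cells. The J3T-1shA array thus stood alone at the low end, 17.6-fold lower than the J3T-1 array. The dimmer signal lay under the limit, and against the limit itself the J3T-1 signal was 2.14-fold higher. A second SEMA3A probe set, under the limit on every array, read 204.0 in J3T-2A and 166.6 in J3T-2 cells, 16.6 in J3T-1shA and 237.5 in J3T-1 cells. Both probe sets gave the same order for each pair, with log2 ratios for J3T-1shA over J3T-1 cells of -4.14 and -3.84. For J3T-2A over J3T-2 cells the brighter probe set gave a log2 ratio of 0.55, within 2-fold.

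SEMA3C, a secreted semaphorin that can act through PLXND1, was higher in each manipulated line than in its parent. Its signals were 253.2 in J3T-2A and 76.1 in J3T-2 cells, 478.3 in J3T-1shA and 148.7 in J3T-1 cells. Neither parental line reached the limit and both manipulated lines did. The signal was 3.33-fold higher in J3T-2A than in J3T-2 cells and 3.22-fold higher in J3T-1shA than in J3T-1 cells.

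SEMA3F, a ligand of neuropilin 2, ran the other way in the same 2 comparisons. It read 161.0 in J3T-2A and 408.1 in J3T-2 cells, 111.8 in J3T-1shA and 282.3 in J3T-1 cells. Here only the parental lines reached the limit, and the manipulated lines were 2.54-fold lower (J3T-2A against J3T-2) and 2.53-fold lower (J3T-1shA against J3T-1). With a pseudocount of 80 added to each signal, the log2 ratio of the knockdown was -0.92, within 2-fold. SEMA3B, a related secreted semaphorin, read 163.4 in J3T-2A and 256.6 in J3T-2 cells, 117.7 in J3T-1shA and 89.9 in J3T-1 cells. It reached the limit in J3T-2 cells alone and was 2.85-fold lower in J3T-1 than in J3T-2 cells. The second SEMA3B probe set never reached the limit and also lay lower in J3T-1 (31.9) than in J3T-2 (175.9) cells. In J3T-2A cells, however, it read 8.4, its lowest signal, and in J3T-1shA cells 48.2. In the RefSeq annotation of dog assembly UU_Cfam_GSD_1.0, SEMA3B and SEMA3F lie near each other with 4 protein-coding genes between them, and SEMA3A lies beside SEMA3E with 0 between.

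Of the membrane-bound semaphorins, SEMA4C and SEMA7A each passed 2-fold between J3T-2A and J3T-2 cells, in opposite directions. SEMA4C, a ligand of PLXNB2, had signals of 139.8 in J3T-2A and 310.3 in J3T-2 cells, 99.9 in J3T-1shA and 147.4 in J3T-1 cells. Only the J3T-2 array reached the limit, and against it the signal was 2.22-fold lower in J3T-2A and 2.11-fold lower in J3T-1 cells. SEMA7A, a lipid-anchored semaphorin that binds integrins, read 268.0 in J3T-2A and 115.1 in J3T-2 cells, 147.1 in J3T-1shA and 206.0 in J3T-1 cells. It reached the limit in J3T-2A cells alone, where it was 2.33-fold higher than in J3T-2 cells. SEMA6D, which binds class A plexins, had 267.7 in J3T-2A and 233.9 in J3T-2 cells, 70.5 in J3T-1shA and 195.0 in J3T-1 cells. It was measured only between J3T-2A and J3T-2 cells, with a log2 ratio of 0.19. SEMA4F, a transmembrane semaphorin, stayed within 2-fold throughout, at 369.8 in J3T-2A and 408.6 in J3T-2 cells, 329.4 in J3T-1shA and 472.5 in J3T-1 cells.

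SLIT3, a secreted ligand of Robo receptors, was bright on 1 array only. It read 174.7 in J3T-2A and 83.6 in J3T-2 cells, 746.8 in J3T-1shA and 132.8 in J3T-1 cells. The signal was 5.62-fold higher in J3T-1shA than in J3T-1 cells, and 2.99-fold higher than the limit itself. It was not measured in either of the other comparisons, where no array reached 250.

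NTN3, a netrin shown in mouse to bind DCC-family and UNC5 receptors, reached the limit in J3T-2 cells alone, where it was 1.11-fold over it. Its signals were 81.4 in J3T-2A and 277.1 in J3T-2 cells, 193.5 in J3T-1shA and 95.4 in J3T-1 cells. Against J3T-2 cells it was 3.40-fold lower in J3T-2A cells, with a log2 ratio of -1.54 in J3T-1 cells.

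The ephrins-A, lipid-anchored ligands of Eph receptors of class A, passed 2-fold in no comparison. EFNA1, a ligand of EPHA2, read 284.2 in J3T-2A and 327.1 in J3T-2 cells, 216.7 in J3T-1shA and 172.6 in J3T-1 cells. Its second probe set followed it, at 223.8 in J3T-2A and 312.3 in J3T-2 cells, 190.3 in J3T-1shA and 172.5 in J3T-1 cells. Both J3T-1 derived lines lay below both J3T-2 derived lines on each probe set, and J3T-1 over J3T-2 cells gave a log2 ratio of -0.92. EFNA4 had 182.4 in J3T-2A and 317.0 in J3T-2 cells, 145.1 in J3T-1shA and 191.9 in J3T-1 cells, so that the log2 ratio was -0.80 for J3T-2A over J3T-2 and -0.72 for J3T-1 over J3T-2.

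Among the receptors, EPHA2 and PLXND1 were each brightest in J3T-1 cells. EPHA2, a receptor tyrosine kinase often abundant in glioma, had signals of 288.7 in J3T-2A and 315.9 in J3T-2 cells, 323.1 in J3T-1shA and 654.6 in J3T-1 cells. The other three arrays lay close together, and J3T-1 stood apart. EPHA2 was 2.03-fold lower in J3T-1shA than in J3T-1 cells and 2.07-fold higher in J3T-1 than in J3T-2 cells, both only just past 2-fold, and with a pseudocount of 80 the log2 ratios were -0.87 and 0.89. Between J3T-2A and J3T-2 cells its log2 ratio was -0.13.

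PLXND1, a plexin of endothelial and other cells that receives class 3 semaphorins, showed a like pattern. It read 282.2 in J3T-2A and 199.8 in J3T-2 cells, 267.1 in J3T-1shA and 766.3 in J3T-1 cells. The J3T-1shA signal was 2.87-fold lower than that of J3T-1 cells, with both arrays over the limit, and J3T-1 over J3T-2 cells gave a log2 ratio of 1.94. For J3T-2A over J3T-2 cells the log2 ratio was 0.50. PECAM1, a defining marker of endothelial cells, read 161.0 in J3T-2A and 773.2 in J3T-2 cells, 1.0 in J3T-1shA and 37.0 in J3T-1 cells, so it was low on the array where PLXND1 was brightest. The other 7 endothelial markers examined were under 250 on every array, and the summed signal of all 8 was 424.5 in J3T-2A and 1247.9 in J3T-2 cells, 519.3 in J3T-1shA and 402.8 in J3T-1 cells.

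ROBO1 and PLXNB2 passed 2-fold in no comparison. ROBO1, a receptor for Slits, had signals of 984.5 in J3T-2A and 650.9 in J3T-2 cells, 1115.2 in J3T-1shA and 568.7 in J3T-1 cells. Each manipulated line lay above both parental lines, 1.51-fold higher in J3T-2A than in J3T-2 cells and 1.96-fold higher in J3T-1shA than in J3T-1 cells. Its other probe sets differed in the knockdown. The second read 304.4 in J3T-2A and 284.5 in J3T-2 cells, 82.2 in J3T-1shA and 183.3 in J3T-1 cells, a log2 ratio of -1.16 for J3T-1shA over J3T-1. The third read 233.9 in J3T-2A and 151.0 in J3T-2 cells, 267.2 in J3T-1shA and 107.8 in J3T-1 cells, a log2 ratio of 1.31 for that comparison. In the knockdown comparison the second probe set was under the limit on both arrays. The third reached the limit in J3T-1shA cells alone, so a measured ratio there could only be higher. Only the brightest had both arrays over the limit, and the probe sets did not share 1 direction. PLXNB2, the receptor of SEMA4C, had the narrowest range of the 16 genes, at 398.3 in J3T-2A and 433.7 in J3T-2 cells, 425.3 in J3T-1shA and 415.9 in J3T-1 cells.

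**Figure D2:**
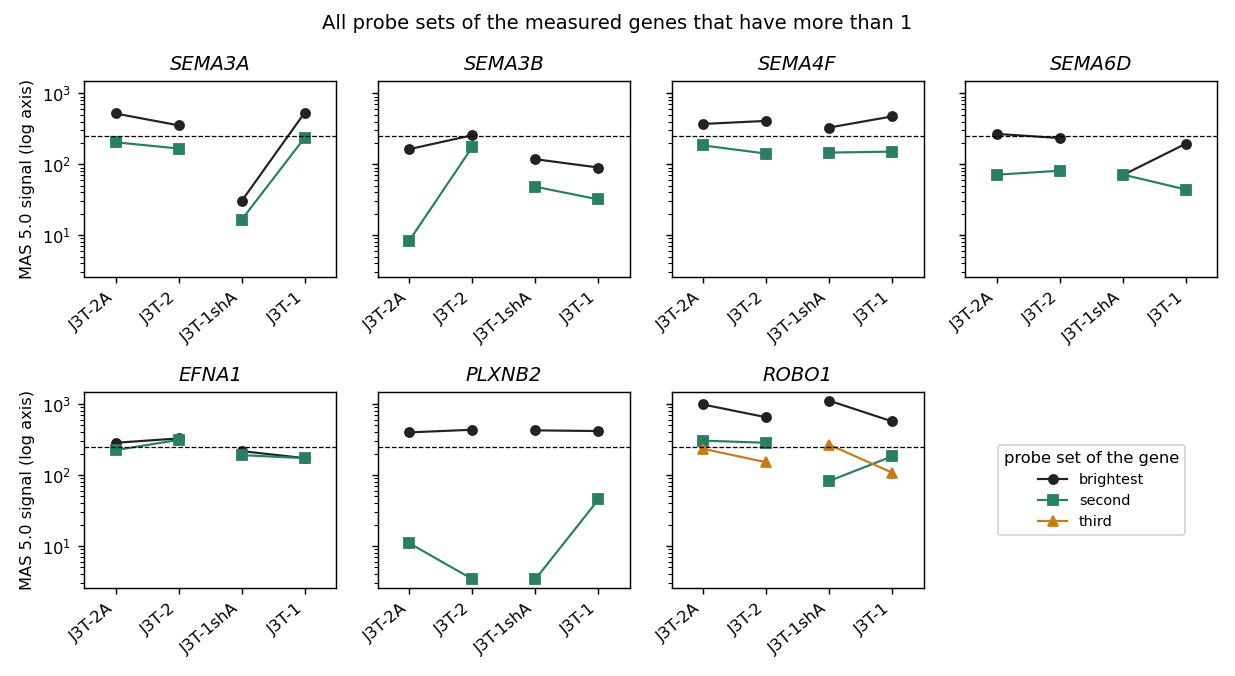
MAS 5.0 signals of all probe sets of the 7 measured guidance genes that have more than 1, on a log axis, with lines joining each derived line to its parent and the limit of 250 dashed. Both SEMA3A probe sets dip in J3T-1shA cells, at 30.4 and 16.6, while the second ROBO1 probe set, under 250 there, runs against the brightest and the third.

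The only error the files allow is that between probe sets of one gene. It was taken over genes whose 2 brightest probe sets both reached 250 on the higher array, with the brightest at most 1250 there. That range holds the measured guidance genes. The log2 ratios of the 2 probe sets differed with an SD of 0.37 for J3T-2A over J3T-2 (1520 genes). The SD was 0.43 for J3T-1shA over J3T-1 (1491 genes) and 0.43 for J3T-1 over J3T-2 (1473 genes). Genes whose second probe set stayed under 250, such as PLXNB2 and SEMA3B, did not enter, so the SD does not cover them. Both probe sets of a gene saw the same RNA, so that SD holds no spread between cultures. Of the 16 guidance gene ratios over 2-fold, 3 had both arrays at or over the limit, namely both EPHA2 ratios and PLXND1 in the knockdown. In the other 13 the dimmer array lay under it, and only for SEMA3A and SLIT3 in the knockdown and PLXND1 between the parental lines did the brighter array also exceed the limit by more than 2-fold.

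In J3T-2A against J3T-2 cells, 15 guidance genes were measured and 5 passed 2-fold, all of them ligands. SEMA3C and SEMA7A were over 2-fold higher (13.3% of the 15), against 1.69% of all measured genes. NTN3, SEMA3F and SEMA4C were over 2-fold lower (20.0%), against 2.10% of all measured genes. Among all genes of the dim range, whose higher array lay between 250 and 1250, 4.71% passed either way. The higher arrays of the 5 guidance genes past 2-fold lay at the low end of that range, at 253.2 to 408.1. The part of low signal in these shares was not tested. Of the 6 guidance genes that reached 250 in both lines, namely EFNA1, EPHA2, PLXNB2, ROBO1, SEMA3A and SEMA4F, 0 passed 2-fold, against 1.75% of all such genes. The median log2 ratio of the 15 was -0.13, beside -0.003 over all 6860 measured genes, and turned to 0.58 with a limit of 500. With the pseudocount of 80, SEMA4C (log2 ratio -0.83) and SEMA7A (0.83) no longer passed 2-fold.

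In J3T-1shA against J3T-1 cells, 9 guidance genes were measured and 6 passed 2-fold. The ligands SEMA3C and SLIT3 were over 2-fold higher (22.2% of the 9), against 4.26% of all measured genes. The ligands SEMA3A and SEMA3F and the receptors EPHA2 and PLXND1 were over 2-fold lower (44.4%), against 3.80%. Over the dim range 8.72% of all genes passed either way. With both arrays at or over the limit 5 guidance genes remained, of which EPHA2 and PLXND1 were over 2-fold lower, against 4.96% of all such genes passing either way. The median log2 ratio of the 9 was -0.52, beside -0.03 over all 6944 measured genes, and was -1.02 with a limit of 500 and -0.0092 with none. With the pseudocount of 80, EPHA2 and SEMA3F no longer passed 2-fold, which left 2 lower.

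In J3T-1 against J3T-2 cells, which share an array with each of the other comparisons, 12 guidance genes were measured and 5 passed 2-fold. The receptors EPHA2 and PLXND1 were over 2-fold higher (16.7% of the 12), against 2.94% of all measured genes. The ligands NTN3, SEMA3B and SEMA4C were over 2-fold lower (25.0%), against 4.05%. Over the dim range the share of all genes passing either way was 8.47%. With both arrays at or over the limit, EPHA2 alone of 6 guidance genes passed 2-fold, against 3.73% of all such genes. The median log2 ratio of the 12 was -0.36, beside 0.03 over all 6967 measured genes, and turned to 0.83 with a limit of 500. EPHA2 (log2 ratio 0.89), SEMA3B (-0.99) and SEMA4C (-0.78) no longer passed 2-fold with the pseudocount of 80.

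**Figure D3:**
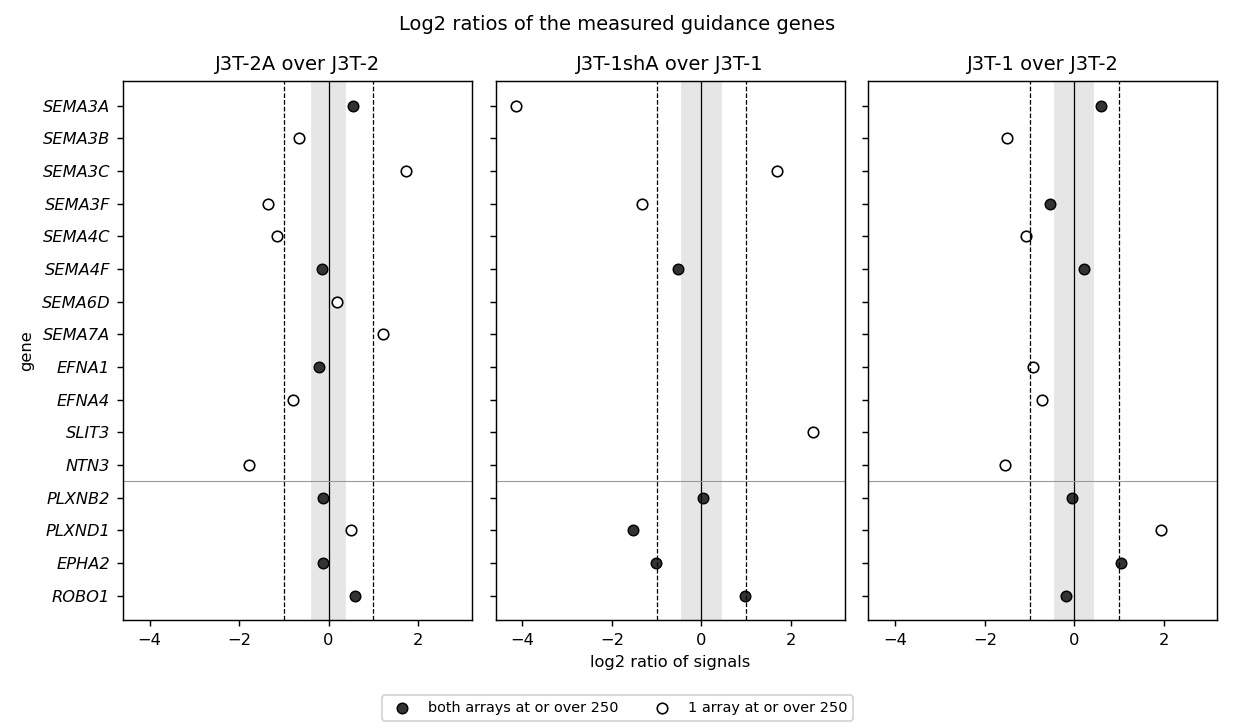
Log2 ratios of the measured guidance genes in the 3 comparisons, with ligands above the grey line and receptors below it. Filled points had both arrays at or over 250 and open points 1, and the dashed lines mark 2-fold. The grey band is the SD between probe sets (0.37, 0.43 and 0.43) of dim genes whose 2 brightest probe sets both reached 250. Most points past 2-fold are open.

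As the authors describe the lines, the 2 manipulations moved ANXA2 in opposite directions. A gene that followed ANXA2 would then have ratios of opposite sign in J3T-2A over J3T-2 and J3T-1shA over J3T-1. Of the 8 guidance genes measured in both comparisons, 5 had ratios of the same sign (62.5%), against 55.8% of the 6563 genes measured in both. SEMA3C and SEMA3F passed 2-fold the same way in both (25.0% of the 8), against 1.05% of all genes. In all 4 of these ratios the dimmer array lay under the limit, so the share is a description only, and with the limit on both arrays 0 guidance genes passed in J3T-2A over J3T-2 and thus none in both. None of the 8 guidance genes passed 2-fold in opposite directions. Only 16 of all 6563 genes did, so 8 genes are too few for that absence to say anything about guidance genes. PLXND1 and SEMA3A had ratios of opposite sign, higher in J3T-2A than in J3T-2 cells and lower in J3T-1shA than in J3T-1 cells, with only the knockdown past 2-fold.

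**Figure D4:**
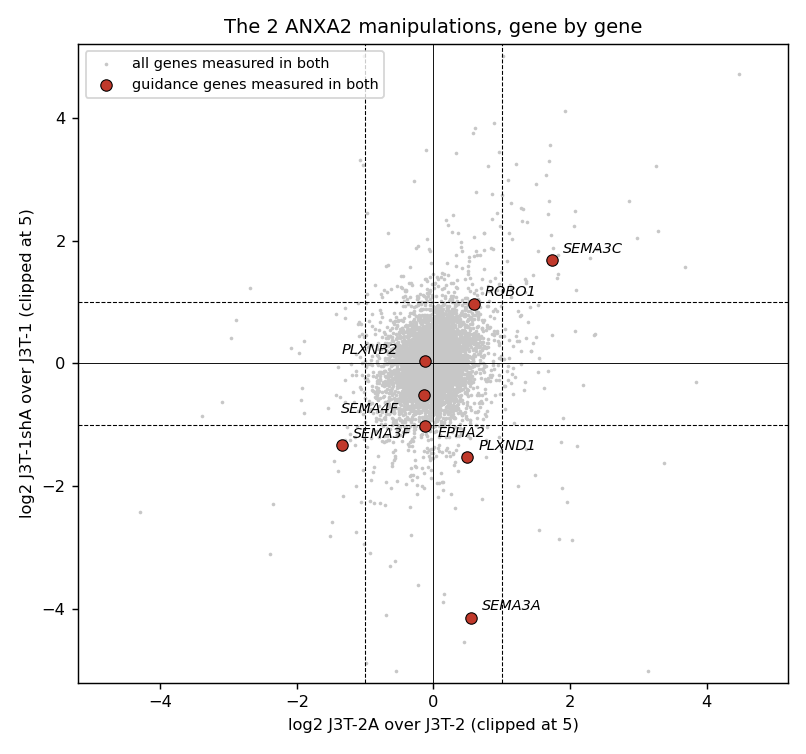
Log2 ratio of J3T-1shA over J3T-1 against log2 ratio of J3T-2A over J3T-2 for all 6563 genes measured in both (grey, clipped at 5) and the 8 guidance genes among them (red), with 2-fold dashed on each axis. SEMA3C lies over 2-fold on both axes, SEMA3F under it on both, and SEMA3A at -4.14 on the knockdown axis.

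The 4 arrays were then ordered for each gene by the described ANXA2 level, by line of origin and by manipulation. On both ANXA2-high lines (J3T-2A and J3T-1), PLXND1, SEMA3A and SEMA7A exceeded both ANXA2-low lines (J3T-2 and J3T-1shA), 3 of 16 measured genes (18.8%) against 14.1% of all measured genes. NTN3 and PLXNB2 lay under both (12.5%), against 12.8%. The second PLXNB2 probe set, under the limit on every array, went the other way. It read 10.9 in J3T-2A and 45.2 in J3T-1 cells, against 3.4 in J3T-2 and 3.4 in J3T-1shA cells. By line of origin, EPHA2 alone was higher in both J3T-1 derived than in both J3T-2 derived lines (6.25%), against 20.4% of all genes. EFNA1, SEMA3B and SEMA6D were lower in both (18.8%), against 16.0%. The second probe sets of SEMA3B and SEMA6D, under the limit on every array, did not keep that order. SEMA3B read 8.4 in J3T-2A and 48.2 in J3T-1shA cells there, and SEMA6D 71.3 and 71.6. In a grouping chosen after the values were seen, ROBO1, SEMA3C and SLIT3 were higher in both manipulated than in both parental lines (18.8%), against 17.2%. EFNA4, SEMA3F, SEMA4C and SEMA4F were lower in both (25.0%), against 19.5%. Second probe sets broke this order too, SEMA4F being highest in J3T-2A cells (184.3) and ROBO1 lowest in J3T-1shA cells (82.2). An exact permutation test of 2 against 2 arrays cannot give a two-sided p below 0.33, and none was run.

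Known partners were set side by side, each gene on its own probe set. In the knockdown, SLIT3 was higher in J3T-1shA than in J3T-1 cells. Its receptor ROBO1 had a log2 ratio of 0.97 on the brightest probe set. The second ROBO1 probe set gave -1.16 with both arrays under the limit, and the third 1.31 with the J3T-1 array under it. SEMA3C was higher and PLXND1 lower in J3T-1shA than in J3T-1 cells. EPHA2 was lower there, while its ligand EFNA1 was not measured. SEMA4C was lower in J3T-2A than in J3T-2 cells, and its receptor PLXNB2 had a log2 ratio of -0.12.

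The neuropilins, co-receptors of class 3 semaphorins, were examined among 81 further genes of the pathway, of which 73 had a probe set and 43 reached the limit. NRP1, the co-receptor of SEMA3A, read 237.4 in J3T-2A and 575.9 in J3T-2 cells, 238.8 in J3T-1shA and 201.9 in J3T-1 cells, and on this probe set was 2.43-fold lower in J3T-2A than in J3T-2 cells. Its other probe sets were within 2-fold there, with log2 ratios of -0.62, -0.95 and -0.65. NRP2, the co-receptor of SEMA3F, stayed within 2-fold on its brightest probe set, at 1066.9 in J3T-2A and 1621.1 in J3T-2 cells, 1672.3 in J3T-1shA and 2378.6 in J3T-1 cells. The other NRP2 probe sets, under the limit on every array, went opposite ways. Their log2 ratios were -1.93 and 0.54 for J3T-2A over J3T-2, 2.965 and -1.27 for J3T-1shA over J3T-1, and -2.50 and 1.51 for J3T-1 over J3T-2. DCC, a netrin receptor, was under the limit on all arrays, as were the UNC5 genes. NGEF, an exchange factor that acts downstream of EPHA receptors, read 15.1, under the limit, in J3T-1shA and 307.6 in J3T-1 cells. Among the further genes NCK2 (2.53-fold) and ABLIM1 (8.26-fold) were higher in that comparison. A link between NGEF and the lower EPHA2 signal there was not tested.

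Of the further pathway genes, 38 were measured in J3T-2A against J3T-2 cells. Of these, 2 were over 2-fold higher (MET, MICAL2) and 2 lower (NRP1, ARHGAP35), against 1.69% and 2.10% of all measured genes. Their median log2 ratio was 0.13, beside -0.003 over all measured genes. In J3T-1shA against J3T-1 cells 6 were higher (NRCAM, ALCAM, SDC1, MET, NCK2, ABLIM1) and 1 lower (NGEF) of 40. The shares of all measured genes were 4.26% and 3.80%, and the median was 0.16 beside -0.03. In J3T-1 against J3T-2 cells 1 was higher (CHN1) and 4 lower (NRP1, NRCAM, ALCAM, FLRT2) of 38. The shares of all measured genes were 2.94% and 4.05%, and the median was 0.17 beside 0.03. MET, the receptor of hepatocyte growth factor and a partner of plexins, had signals of 1410.5 in J3T-2A and 671.3 in J3T-2 cells, 2420.8 in J3T-1shA and 760.1 in J3T-1 cells, so it too was higher in each manipulated line than in its parent.

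The labelled tissue was checked on markers. Of 11 glioma and neural progenitor markers with a probe set, SOX2, NES, VIM, CD44, PDGFRA and NCAM1 reached the limit, whereas GFAP, S100B, EGFR, FABP7 and CSPG4 did not. Of 9 neuronal markers, MAP2, TUBB3, NEFL and GAP43 reached it and RBFOX3, SYP, SNAP25, STMN2 and DCX lay under it. Of 4 epithelial markers, KRT8 alone reached the limit, at up to 1076.3 in J3T-2 cells, and EPCAM, KRT18 and CDH1 lay under it. Of 5 microglial markers, C1QA alone reached it, at up to 661.5 in J3T-1 cells, and AIF1, CSF1R, PTPRC and CD68 did not. Of 5 oligodendrocyte markers with a probe set, CNP alone reached it, at up to 1019.4 in J3T-2A cells, and MBP, MOG, MAG and SOX10 did not. The summed signal of 7 fibroblast and pericyte markers, 5 of which reached the limit, was 42066.4 in J3T-2A and 30358.4 in J3T-2 cells, 50316.7 in J3T-1shA and 18520.0 in J3T-1 cells. That sum was higher in each manipulated line than in its parent, as were SEMA3C and the brightest ROBO1 probe set, and its part in their ratios was not tested. The markers did not move as one. For J3T-2A over J3T-2 cells the log2 ratio was 1.65 for COL1A1 and 0.22 for LUM, against -0.70 for DCN. ACTA2 (1.99), PDGFRB (-1.25), RGS5 (-0.93) and FAP (-2.23) were under the limit on both arrays there. For J3T-1shA over J3T-1 cells the log2 ratio was -6.11 for FAP and above 0 for COL1A1, DCN, LUM and ACTA2. PDGFRB (-2.34) and RGS5 (0.34) were under the limit on both arrays of that comparison.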

How the data were processed

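The authors isolated total RNA from 4 canine lines, hybridised 1 GeneChip Canine Genome 2.0 array per line and computed MAS 5.0 signal intensities with global scaling. The deposited intensities are linear and carry no detection calls. The stated trimmed mean was 100, whereas the deposited columns gave 495.8 to 496.0 with 2% trimmed at each end, so the limit of 50 on the stated scale was set at 250. Ratios of 2 arrays were taken without further normalization or pseudocount (Python 3.11.15, pandas 2.3.3, numpy 2.4.6, checked on simulated data). A gene was measured where the higher array reached 250, and passed at a ratio over 2. All probe sets with 1 gene symbol were used, the brightest standing for its gene. The array annotation was updated through Entrez identifiers against RefSeq, which held 56 of the 62 members and changed 0 symbols. EFNA2, EPHA5, PLXNA1, PLXNC1 and SEMA5B were not analysed here. Of the 16 measured genes, 11 were represented by a probe set whose name ends in _s_at, which may match several transcripts.

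Named genes were all members at or over 250 on any array, with signals for those over 2-fold. Signals of the other measured members were added after their values were seen. The members and lists were chosen with earlier results of these data known. The alternatives were a limit of 500, no limit, a pseudocount of 80, the median of all probe sets, quantile normalization, centring, leaving out UNC5CL and, added after seeing the data, the limit on both arrays. The genome build behind the array's probe sets was not given in the sources used here, so no positions or promoter sequences are shown.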

Additional observations from a re-analysis of the deposited data

Results flagged for a closer look

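SEMA3C and SEMA3F differed between the 2 manipulations when both were read as ANXA2-high over ANXA2-low cells. For SEMA3C, the log2 ratio of J3T-2A over J3T-2 minus that of J3T-1 over J3T-1shA was 3.42, since the gene was over 2-fold higher in each manipulated line than in its parent. For SEMA3F the same difference was -2.68, since the gene was over 2-fold lower in each manipulated line than in its parent. The differences were not tested, there being 1 array per line. In each of these ratios the dimmer array lay under the limit of 250.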

How the results depend on the processing

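No ratio over 2-fold changed sign under the alternatives for single ratios. The median ratio turned positive for J3T-2A over J3T-2 with a limit of 500 only, and stayed negative for J3T-1shA over J3T-1 throughout. For J3T-1 over J3T-2 it turned positive with a limit of 500, with no limit and with the limit on both arrays. It stayed negative there with the pseudocount (log2 ratio -0.30), quantile normalization (-0.33) and centring (-0.36). The same held with the median of all probe sets (-0.58) and without UNC5CL (-0.36). With a limit of 500, guidance genes over 2-fold numbered 0 higher and 0 lower in J3T-2A against J3T-2 (median log2 ratio 0.58), 1 higher in J3T-1shA against J3T-1 (median -1.02) and 0 lower in J3T-1 against J3T-2 (median 0.83), and 0 genes lay lower in ANXA2-high, J3T-1 derived or manipulated lines. With no limit, they numbered 13 higher and 11 lower in J3T-2A against J3T-2, 9 and 13 in J3T-1shA against J3T-1 (median -0.0092) and 11 and 10 in J3T-1 against J3T-2 (median 0.14). Over all 4 arrays they then numbered 12 higher and 8 lower in ANXA2-high lines, 9 and 6 in J3T-1 derived lines, and 12 and 15 in manipulated lines. A pseudocount of 80 gave 1 higher in J3T-2A against J3T-2, 2 lower in J3T-1shA against J3T-1, and 1 higher and 1 lower in J3T-1 against J3T-2. With the limit on both arrays, an alternative chosen after seeing the data, these were 0 and 0 in J3T-2A against J3T-2, 0 higher and 2 lower in J3T-1shA against J3T-1, and 1 higher and 0 lower in J3T-1 against J3T-2 (median 0.075). With the median of all probe sets, 1 gene was lower and 4 were higher in ANXA2-high lines, 2 were lower in J3T-1 derived lines, 2 were higher and 3 lower in manipulated lines, and 2 passed 2-fold lower in J3T-1 against J3T-2. Quantile normalization and, for the 3 comparisons, leaving out UNC5CL changed none of the counts. Centring was applied to medians and single ratios only. For the limit of 500, no limit, the pseudocount and the median of probe sets, the shares over all genes are not given here. Those counts therefore describe the settings and are not results about guidance genes. With no limit, signals as low as 2.6 entered the counts.

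Of the 16 ratios over 2-fold, quantile normalization and the median of probe sets each left 16 over 2-fold, centring left 15 (EPHA2 in the knockdown had a log2 ratio of -0.98) and the pseudocount left 9. The ratios lost with the pseudocount were both of EPHA2, both of SEMA4C, SEMA3B, SEMA7A and SEMA3F in the knockdown. The cause of these changes was not tested, beyond fewer genes being measured at a stricter limit. Signals under the limit set how far a fold can be read, no replicate could be left out, and no paired analysis was possible because each line had 1 array.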
